A study of Mus musculus with 12 samples.

Results

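The 10 genes described here carry out cellular iron uptake, storage and export in the mouse: *Trf*, *Tfrc*, *Steap3* and *Slc11a2* (uptake), *Fth1* and *Ftl1* (storage), *Slc40a1* (export), *Aco1* and *Ireb2* (regulation), and *Hmox1* (heme breakdown). They were taken by gene symbol from the 56350 genes of the count table, and all 10 were among the 16484 genes that passed the filter on low counts, *Trf* only through its osteocyte libraries. RNAseq libraries of MPC2 cells, a conditionally immortalized mouse mesenchymal line derived from a single clone, were made from 4 conditions with 3 libraries each. MSCs were undifferentiated MPC2 cells kept at 33 °C, and osteocytes were the same cells after 3 weeks at 37 °C in media with beta-glycerophosphate and ascorbic acid. Each cell type received either DMSO vehicle or 50 µmol/L FG-4592 (roxadustat) for 48 hours. Temperature, media and time in culture therefore changed together with differentiation, and their effects cannot be told apart.

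Iron enters most cells as ferric iron bound to transferrin, which is taken up with its receptor, freed in endosomes, reduced and passed to the cytosol. Iron that is not used is stored in ferritin shells or leaves through ferroportin. Iron regulatory proteins bind hairpins called iron-responsive elements (IREs) when iron is scarce, which stabilizes transcripts that carry them in the 3′ UTR and blocks translation of those that carry one in the 5′ UTR, so that a transcript level does not give the protein level for ferritin or ferroportin. FG-4592 inhibits the prolyl hydroxylases that mark hypoxia-inducible factors (HIFs) for destruction. HIFs bind DNA at a short core, and *Tfrc*, *Trf* and *Hmox1* are textbook targets of this pathway.

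IREs are shown first because they are the elements that iron regulatory proteins read. Binding was not measured, and a match is a description of the sequence. The search was for a C, a stem of 5 bases, the loop CAGTGN in which N is not G, and a second stem of 5 bases, at least 4 of which pair with the first, on the sense strand of coding transcripts in Gencode M21 (GRCm38, the assembly also called mm10). Of the 10 genes, 5 held a match, and 1763 of all 21901 coding genes did (8.05%). Each line gives the 17 bases of the element with 5 more on either side, 5′ to 3′, with the loop in capitals. The first 4 matches lay in the 3′ UTR of *Tfrc*, at chr16:32631225-32631241, chr16:32631604-32631620, chr16:32631669-32631685 and chr16:32631716-32631732 on the plus strand, in that order:
Tfrc 3′ UTR: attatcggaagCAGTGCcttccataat
Tfrc 3′ UTR: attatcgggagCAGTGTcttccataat
Tfrc 3′ UTR: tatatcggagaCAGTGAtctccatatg
Tfrc 3′ UTR: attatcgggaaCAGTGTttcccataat
Slc11a2 3′ UTR: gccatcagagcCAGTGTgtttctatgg
Slc40a1 5′ UTR: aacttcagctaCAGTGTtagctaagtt
Fth1 5′ UTR: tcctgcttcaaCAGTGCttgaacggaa
Ftl1 5′ UTR: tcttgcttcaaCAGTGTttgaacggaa

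The matches of the other 4 genes lay at chr15:100395159-100395175 (*Slc11a2*, minus strand), chr1:45925471-45925487 (*Slc40a1*, minus), chr19:9982738-9982754 (*Fth1*, plus) and chr7:45459785-45459801 (*Ftl1*, minus). A match in a 3′ UTR was held by 3.04% of coding genes and one in a 5′ UTR by 0.658%. In *Slc11a2* the match had 4 of 5 pairs. The matches were in 1 of 3 coding transcripts of *Tfrc*, 1 of 6 of *Slc11a2*, 1 of 4 of *Slc40a1*, 4 of 5 of *Fth1* and 1 of 2 of *Ftl1*, and the counts, made per gene, do not separate the isoforms with and without them. No match was found in *Trf*, *Steap3*, *Aco1*, *Ireb2* or *Hmox1*, which says only that these letters are not in those transcripts.

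Promoter windows from RefSeq (GRCm38.p6; 250 bases before to 50 after a start) were at hand for 6 of the 10 genes: *Tfrc*, *Fth1*, *Ftl1*, *Ireb2*, *Aco1* and *Steap3*. The HIF core was searched as ACGTG and as GCGTG on both strands. ACGTG is in 19.6%, GCGTG in 32.4% and at least one of them in 43.8% of all 32851 windows. *Tfrc* was the only one of the 6 with ACGTG, and its core is shown with 10 bases on either side (chr16:32608884-32608908, plus strand), beginning 2 bases before the upstream start of transcription. These shares are per window, and a gene with several starts has several windows. GCGTG was found in both windows of *Tfrc*, in 1 of 2 of *Fth1*, in 1 of 4 of *Steap3* and in the single window of *Ftl1*, and the matches nearest to the starts of both ferritin genes are given as they read on the gene's strand, at chr19:9982586-9982610 for *Fth1* and chr7:45459919-45459943 for *Ftl1*. *Aco1* and *Ireb2* had neither form of the core in their windows. The antioxidant element TGACNNNGC, present in 12.4% of windows, was in none of the windows of these 6 genes. None of these matches was tested for binding. The cores stand in capitals, those of *Fth1* and *Ftl1* reading from the opposite strand:
Tfrc promoter: cggtaggtgtACGTGcggaaggaag
Fth1 promoter: gtttgggcaaCACGCccacaggaag
Ftl1 promoter: gtctccgcctCACGCcaccgccgat

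Library totals lay between 52829185 and 68108470 counts, and the upper limit for a gene without counts (3 counts, the floor) was between 0.0447 and 0.0545 CPM, counts scaled to a common library size with TMM factors. Floors cover counting error only. Markers were checked against the labels. *Sost* and *Mepe*, which mark mature osteocytes, were at or under the floor in all 4 conditions, whereas *Dmp1* was at 11.2 ± 2.3 CPM (SD, n = 3) and *Phex* at 57.6 ± 6.32 CPM in vehicle-treated osteocytes, against 1.19 ± 0.622 and 0.977 ± 0.116 CPM in vehicle-treated MSCs. Of 7 osteoblast and osteocyte markers tested in vehicle, *Bglap* is left out, since not every MSC library had more than 10 counts (8 to 18). Of the other 6, 3 were higher in osteocytes, where 26% of all genes tested were higher and 24.9% lower. *Ibsp* (59.6 ± 4.48 CPM in MSCs, 35.6 ± 1.57 CPM in osteocytes) and *Alpl* (76.6 ± 7.14 and 61.0 ± 3.24 CPM) were lower, and *Col1a1* had a log2 difference of −0.03. The summed level of 6 macrophage markers was at most 3.65 CPM, of 5 erythroid markers at most 3.65 CPM and of 3 endothelial markers at most 0.561 CPM. A list of 10 adipocyte genes, added after the data were seen, summed to between 900 and 1040 CPM in MSCs and between 4050 and 5050 CPM in osteocytes. *Adipoq*, the fat cell hormone adiponectin, was at 7.77 ± 0.473 CPM in vehicle-treated MSCs and 1470 ± 269 CPM in vehicle-treated osteocytes. In bulk libraries a change in the share of cells that express a gene and a change in its RNA per cell cannot be told apart, and this holds for every value that follows.

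The first question was how the iron genes of each cell type responded to FG-4592. Cell type markers moved with this treatment: of the 7 osteoblast and osteocyte markers, 5 were lower with FG-4592 in MSCs and 6 in osteocytes, where *Phex* was at 2.83 ± 0.871 CPM and *Dmp1* at 2.06 ± 0.582 CPM with FG-4592. Of 4 mesenchymal markers tested, 1 was higher and 3 lower in MSCs, and 1 higher and 2 lower in osteocytes, with *Vim* higher in both (log2 0.33 and 1.05) and *Pdgfrb* lower in both (−0.49 and −0.76). The summed level of 5 mesenchymal markers, most of it *Vim*, went from 5510 to 5680 CPM with vehicle to 6250 to 6610 CPM with FG-4592 in MSCs, and from 3490 to 3580 CPM to 4690 to 5310 CPM in osteocytes. The part of these markers in the responses of the iron genes was not tested. In MSCs, 4 of the 9 genes with a value were higher with FG-4592 and 2 were lower at a false discovery rate (FDR) under 0.05 (edgeR's quasi-likelihood test, adjusted over all genes tested), where 17.6% of all genes tested were higher and 20.4% lower. *Trf* has no value in MSCs, since both MSC conditions were at or under the floor. In osteocytes, 4 of 10 were higher and 5 lower, against 21.9% and 22% of all genes. The median log2 fold change of the members was 0.08 in MSCs and −0.04 in osteocytes, beside −0.045 and 0.002 over all genes tested. At an absolute log2 fold change above 1 as well, *Hmox1* and *Tfrc* were called higher in MSCs (4.12% of all genes were), and *Hmox1*, *Trf* and *Ftl1* were called higher and *Steap3* lower in osteocytes (6.25% and 4.26% of all genes). The treated libraries lay wholly above the vehicle libraries for 4 genes in MSCs and 4 in osteocytes (23.2% and 26.1% of all genes tested), and wholly below them for 3 genes in MSCs and 5 in osteocytes (27.3% and 25.7%).

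**Figure D1:**
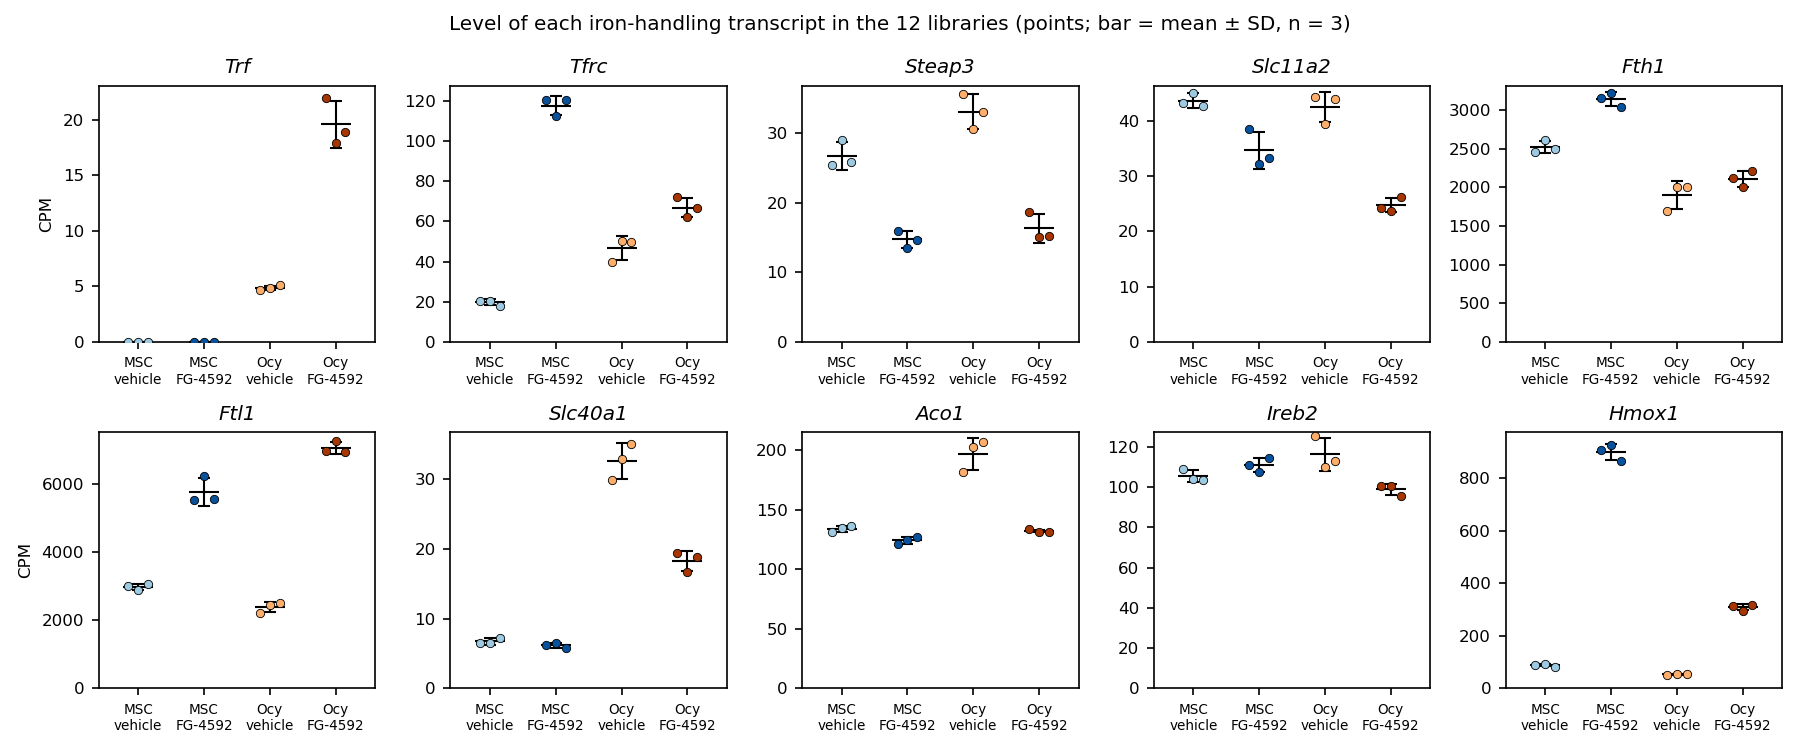
Level of each of the 10 transcripts in CPM (vertical axes, linear and from 0) in MSCs and osteocytes (Ocy) with vehicle or FG-4592; points are libraries, the long bar is the mean and the whiskers the SD (n = 3). *Trf* is at or near 0 in all 6 MSC libraries, *Tfrc* and *Hmox1* are highest in FG-4592-treated MSCs and *Ftl1* is highest in FG-4592-treated osteocytes.

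*Trf* encodes transferrin, the iron-carrying protein of plasma, which is made mainly in the liver. Of the 6 MSC libraries, 5 had no *Trf* count and 1, treated with FG-4592, had 1 count. Vehicle-treated osteocytes had 312, 269 and 312 counts (4.70, 4.84 and 5.08 CPM), and FG-4592-treated osteocytes had 1425, 1095 and 1144 (21.9, 17.9 and 18.9 CPM). The 3 treated osteocyte libraries lay above the 3 vehicle libraries, without overlap. *Trf* rose 4.02-fold with FG-4592 in osteocytes (log2 fold change 2.01, SE 0.14, FDR 2.61e-08 by edgeR). In vehicle, *Trf* was at least 96.3-fold higher in osteocytes than in MSCs, taking the floor of 3 counts per library for the MSCs. In FG-4592 the ratio of osteocytes to MSCs, from the counts pooled over the 3 libraries of each, was 3744, with a 95% counting interval from 671.5 to 147900, since it rests on 1 count in MSCs. The bound in vehicle rests on the floor and the ratio in FG-4592 on pooled counts, so they are not to be compared.

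The genome holds *Trf* on the minus strand of chromosome 9 (103204001 to 103230444, mm10), and 2108 of its 3320 exonic bases also belong to the overlapping gene *Gm20425* of the same strand, which had 0 or 1 count per library. The methods state that a read pair was counted for every gene it overlaps, but among 199 genes that lie wholly within the exons of another and whose host would give them at least 1000 counts, 101 had no count and 178 had under 1 in 100 of the count this would give. The *Trf* counts may thus come mostly from its 1212 unshared bases, in which case its level per length would be a low estimate. Where its reads fall was not measured. The adipocyte genes listed above, which were chosen after their levels were seen, also stood higher in osteocytes: *Plin1*, a lipid droplet protein, went from 0.324 ± 0.129 CPM in vehicle-treated MSCs to 283 ± 37 CPM in vehicle-treated osteocytes. Between treatments of osteocytes, 2 of the 9 that were tested were higher with FG-4592, where 21.9% of all genes were: *Fabp4* (log2 fold change 1.19) and *Cidec* (0.62). The other 7 were not called, and *Adipoq* had a log2 fold change of −0.10 (FDR 0.45, edgeR). Of 12152 genes compared over the 12 libraries in log2 CPM, Pearson's r with *Trf* was highest for *Fabp4* (0.9975), a fatty acid carrier of fat cells, *Pik3r1* (0.9974) and *Enpp1* (0.9964). In the 6 MSC libraries the *Trf* value is set almost wholly by the prior count, so that any gene low in MSCs and higher with FG-4592 in osteocytes gives a high r, and nothing is drawn from this order. The part of adipocyte-like cells in the *Trf* level was not tested.

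*Tfrc* encodes the transferrin receptor, which brings iron-loaded transferrin into the cell, and lies on chromosome 16 (32608920 to 32632794, plus strand). Its level was 20.6, 20.4 and 18.0 CPM in vehicle-treated MSCs and 120.4, 112.4 and 120.3 CPM in FG-4592-treated MSCs. In osteocytes it was 39.6, 50.3 and 50.0 CPM with vehicle and 71.9, 62.2 and 66.6 CPM with FG-4592. No 2 conditions overlapped, and the order from lowest to highest was vehicle-treated MSCs, vehicle-treated osteocytes, FG-4592-treated osteocytes and FG-4592-treated MSCs. *Tfrc* rose 5.99-fold in MSCs (95% confidence interval of the log2 change 2.39 to 2.77) and 1.44-fold in osteocytes (0.34 to 0.70). Differentiation in vehicle went with a 2.37-fold higher level, and among treated cells osteocytes had a 1.76-fold lower level than MSCs (log2 difference −0.81, FDR 4.22e-07, edgeR). The genes with the pattern most like that of *Tfrc* were *Hspa9* (r = 0.9778), a mitochondrial chaperone used in iron-sulfur cluster assembly, *Gphn* (0.9735) and *Atf4* (0.9701), a transcription factor of the stress response.

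*Steap3* encodes an endosomal reductase that turns the ferric iron released from transferrin into ferrous iron, and *Slc11a2* encodes DMT1, which carries that ferrous iron out of the endosome. Both fell with FG-4592 in both cell types, the opposite direction to the receptor. *Steap3* went from 25.3, 29.0 and 25.8 CPM to 15.99, 13.5 and 14.7 CPM in MSCs and from 35.7, 30.6 and 33.0 CPM to 18.7, 15.1 and 15.2 CPM in osteocytes. In neither cell type did treated libraries overlap the vehicle libraries. The fall was 1.82-fold in MSCs (log2 −0.86, FDR 3.12e-06, edgeR) and 2.03-fold in osteocytes (log2 −1.02, FDR 3.26e-07). *Steap3* was 1.24-fold higher in osteocytes than in MSCs with vehicle (FDR 0.0137, edgeR), whereas the treated osteocytes and MSCs overlapped (log2 difference 0.15, 95% confidence interval −0.06 to 0.36).

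*Slc11a2* was between 42.8 and 45.2 CPM in vehicle-treated MSCs and between 32.3 and 38.6 CPM in FG-4592-treated MSCs. The osteocyte range was between 39.5 and 44.3 CPM with vehicle and between 23.7 and 26.2 CPM with FG-4592. Treated libraries lay below vehicle libraries in both cell types. It fell 1.26-fold in MSCs (log2 −0.33, FDR 0.00195, edgeR) and 1.72-fold in osteocytes (log2 −0.78, FDR 3.14e-07). The vehicle conditions of both cell types overlapped, with a log2 difference of −0.04 (95% confidence interval −0.19 to 0.12), and among treated cells *Slc11a2* was 1.40-fold lower in osteocytes. *Slc11a2* shares 402 exonic bases with *Gm5475* on the opposite strand, which had 0 to 3 counts per library.

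*Fth1* and *Ftl1* encode the heavy and light chains of ferritin. The heavy chain oxidizes iron on entry and the light chain helps to form the mineral core. *Ftl1* was at 3002, 2885 and 3052 CPM in vehicle-treated MSCs and at 5510, 6215 and 5541 CPM in FG-4592-treated MSCs. Osteocytes had 2222, 2452 and 2503 CPM with vehicle and 6963, 7250 and 6931 CPM with FG-4592. The 4 conditions did not overlap, and osteocytes, which had the lowest level with vehicle, had the highest with FG-4592. *Ftl1* rose 1.93-fold in MSCs (log2 0.95, SE 0.05, FDR 6.94e-10, edgeR) and 2.95-fold in osteocytes (log2 1.56, SE 0.05, FDR 1.17e-12).

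*Fth1* was at 2461, 2610 and 2491 CPM in vehicle-treated MSCs and at 3158, 3227 and 3041 CPM in FG-4592-treated MSCs, without overlap. Osteocytes had 1693, 2002 and 2009 CPM with vehicle and 2120, 2000 and 2214 CPM with FG-4592, and these overlapped. The rise in MSCs was 1.25-fold (log2 0.32, FDR 0.000482, edgeR). In osteocytes the log2 fold change was 0.15 (95% confidence interval 0.02 to 0.28, FDR 0.0522, edgeR), just outside the threshold, and this call depends on single libraries: the FDR was between 0.0281 and 0.383 when each of the 12 libraries was left out in turn, and passed the threshold without replicate 2 (0.0433) or 3 (0.0286) of the vehicle-treated osteocytes and without replicate 2 of the FG-4592-treated osteocytes (0.0281). Over 12 alternatives in the processing, the FDR was between 0.004 and 0.51 and the log2 fold change between 0.053 and 0.158. The threshold was passed without a filter on low counts (0.004) and with counts thinned to the smallest library (0.0496). Osteocytes had 1.33-fold less *Fth1* than MSCs with vehicle and 1.49-fold less with FG-4592. The *Fth1* pattern was most like those of *Pir* (r = 0.9858), *Carhsp1* (0.981) and *5031439G07Rik* (0.9793).

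Ferritin genes have processed copies that can split reads. In the transcripts at hand, *Ftl1* matched 19 other genes over at least 100 bases at 90% identity or more, and *Fth1* matched 1. Counts on these copies came to 0.596% of the *Ftl1* counts and 0.015% of the *Fth1* counts. Reads that fit a gene and its copy equally well are not unique and were not counted, so the ferritin levels may be low estimates. The number of such reads was not measured. *Ftl1-ps1* matched *Ftl1* at 99.6% identity over 910 bases, and the copy of *Fth1*, *Gm6977*, matched at 90.5% over 524. *Ftl1* also shares 464 of its 1340 exonic bases with other genes, and if pairs on shared bases went uncounted its counts rest on the other 876. Its level per kb would then be higher, and its changes between conditions would not depend on that length.

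The balance between the uptake receptor and the storage proteins was described within each library, where scaling between libraries plays no part. For every 1000 counts per kb of *Fth1* there were 4.69, 4.39 and 4.06 counts per kb of *Tfrc* in vehicle-treated MSCs and 21.4, 19.5 and 22.2 in FG-4592-treated MSCs. In osteocytes there were 13.1 to 14.1 with vehicle and 19.0, 17.4 and 16.9 with FG-4592. The ratio was thus higher with FG-4592 in both cell types, with no overlap between treatments.

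Against *Ftl1* the ratio went opposite ways in the 2 cell types. For every 1000 counts per kb of *Ftl1* there were 1.43 ± 0.136 (SD, n = 3) of *Tfrc* in vehicle-treated MSCs and 4.45 ± 0.464 in FG-4592-treated MSCs, a log2 difference of 1.64. Osteocytes had 4.21 ± 0.308 without and 2.06 ± 0.191 in the presence of FG-4592, and the log2 difference was −1.03. The treated and vehicle libraries did not overlap in either cell type. The ratio of *Ftl1* to *Fth1*, also per kb, was 3.06 ± 0.176 and 4.74 ± 0.236 in MSCs with vehicle and FG-4592, and 3.26 ± 0.119 and 8.66 ± 0.655 in osteocytes. Levels of these ratios depend on the gene length used, the changes do not: with the length of the principal transcript in place of all exonic bases, an alternative chosen after seeing the data, the *Ftl1* to *Fth1* ratio was 1.83, 2.83, 1.95 and 5.17 in the same order. With the 876 unshared bases of *Ftl1*, another such alternative, it was 4.69, 7.25, 4.99 and 13.3. The ratios are given as a description and were not tested.

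**Figure D2:**
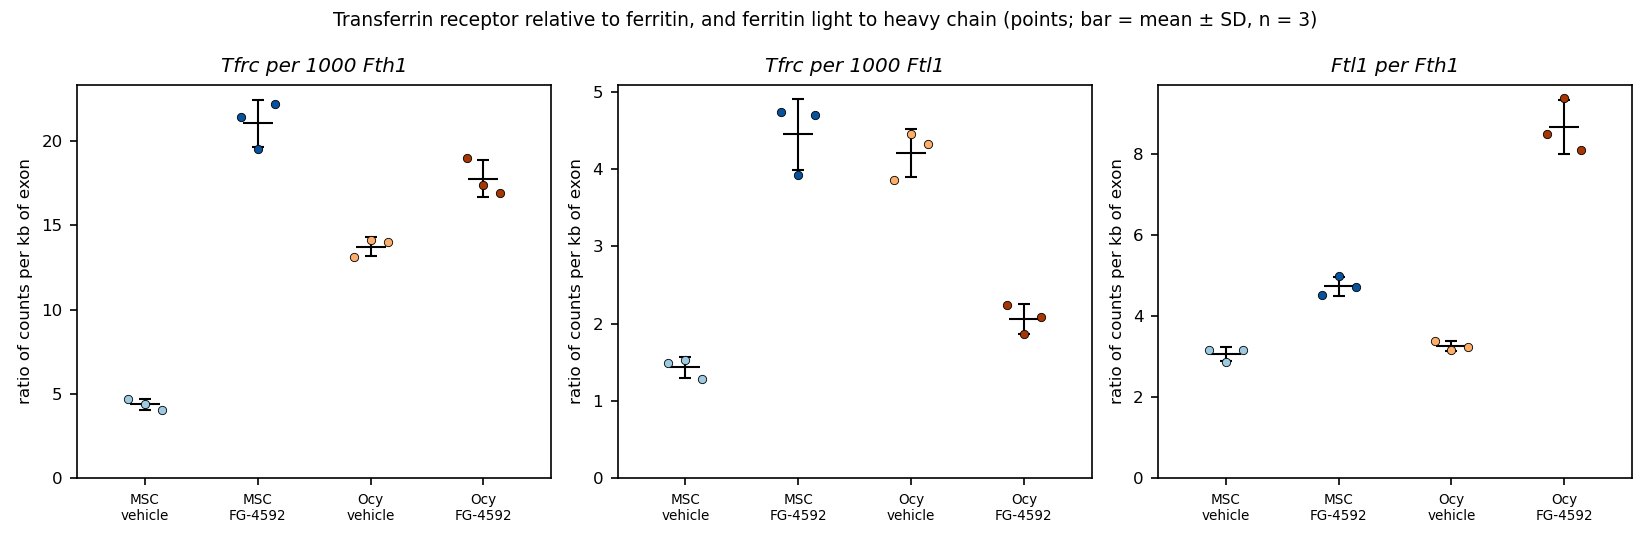
Ratios of counts per kb of exon within each library (vertical axes, from 0) for *Tfrc* per 1000 *Fth1*, *Tfrc* per 1000 *Ftl1* and *Ftl1* per *Fth1*; points are libraries, with mean and SD (n = 3). *Tfrc* per *Ftl1* is higher with FG-4592 in MSCs and lower with FG-4592 in osteocytes (Ocy).

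*Slc40a1* encodes ferroportin, the iron exporter. It was at 6.49, 6.45 and 7.23 CPM in vehicle-treated MSCs and at 6.14, 6.53 and 5.79 CPM in FG-4592-treated MSCs, and these overlapped (log2 fold change −0.13, 95% confidence interval −0.33 to 0.08). Osteocytes had 29.9, 32.9 and 35.1 CPM with vehicle and 19.4, 16.7 and 18.8 CPM with FG-4592. Every osteocyte library lay above every MSC library, and treated osteocytes lay below vehicle-treated ones. *Slc40a1* was 4.85-fold higher in osteocytes than in MSCs with vehicle (log2 2.28, SE 0.09, FDR 8.23e-12, edgeR) and 2.97-fold higher with FG-4592, and it fell 1.78-fold with FG-4592 in osteocytes (log2 −0.83, FDR 1.00e-06). The genes most like it were *Cxcl13* (r = 0.9972), *Pla2g16* (0.996) and *Fndc5* (0.9959).

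*Aco1* and *Ireb2* encode iron regulatory proteins 1 and 2. The first is a cytosolic aconitase that binds IREs when it lacks its iron-sulfur cluster, and the second is degraded when iron is plentiful. *Aco1* was between 131.2 and 135.9 CPM in vehicle-treated MSCs and between 121.5 and 127.3 CPM in FG-4592-treated MSCs. Osteocytes had between 181.3 and 206.5 CPM with vehicle and between 131.3 and 133.3 CPM with FG-4592. The MSC conditions did not overlap, but the log2 fold change of −0.10 did not pass the test (FDR 0.116, edgeR). *Aco1* fell 1.49-fold with FG-4592 in osteocytes (log2 −0.58, FDR 1.11e-07), and its 1.47-fold higher level in osteocytes with vehicle was not seen among treated cells (log2 difference 0.09, 95% confidence interval −0.02 to 0.19).

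*Ireb2* was at 103.4 to 109.1 CPM in vehicle-treated MSCs and at 107.6 to 114.7 CPM in FG-4592-treated MSCs. In osteocytes it was at 110.0 to 125.7 CPM with vehicle and at 95.8 to 100.8 CPM with FG-4592. It fell 1.17-fold with FG-4592 in osteocytes (log2 −0.23, FDR 0.00217, edgeR) and did not pass the test in MSCs (log2 0.08, FDR 0.296). The difference between cell types in vehicle (log2 0.14, FDR 0.039, edgeR) was not called with upper-quartile factors (FDR 0.0826), with library size alone (0.121), without a filter on low counts (0.16) or without replicate 1 of the vehicle-treated osteocytes (0.0522). That among treated cells (log2 −0.17, FDR 0.0147) was not called without replicate 3 of the FG-4592-treated MSCs (0.0606) or of the FG-4592-treated osteocytes (0.0637).

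*Hmox1* encodes heme oxygenase 1, which opens the heme ring and frees its iron. It was at 90.2, 93.8 and 83.0 CPM in vehicle-treated MSCs and at 908.5, 925.4 and 867.5 CPM in FG-4592-treated MSCs. In osteocytes it was at 51.1, 52.9 and 55.4 CPM with vehicle and at 313.0, 296.1 and 318.9 CPM with FG-4592. No conditions overlapped. *Hmox1* had the largest rise of the members with a value in both cell types, 10.1-fold in MSCs (log2 3.34, SE 0.06, FDR 3.71e-16, edgeR) and 5.82-fold in osteocytes (log2 2.54, SE 0.06, FDR 5.42e-15). Osteocytes had 1.67-fold less *Hmox1* than MSCs with vehicle and 2.91-fold less with FG-4592. The genes most like it were *Arih2* (r = 0.9966), *Fam57a* (0.9942) and *Vdac1* (0.9941). These correlations describe 12 libraries that fall into 4 conditions, so that they mostly reflect the means of the conditions.

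**Figure D3:**
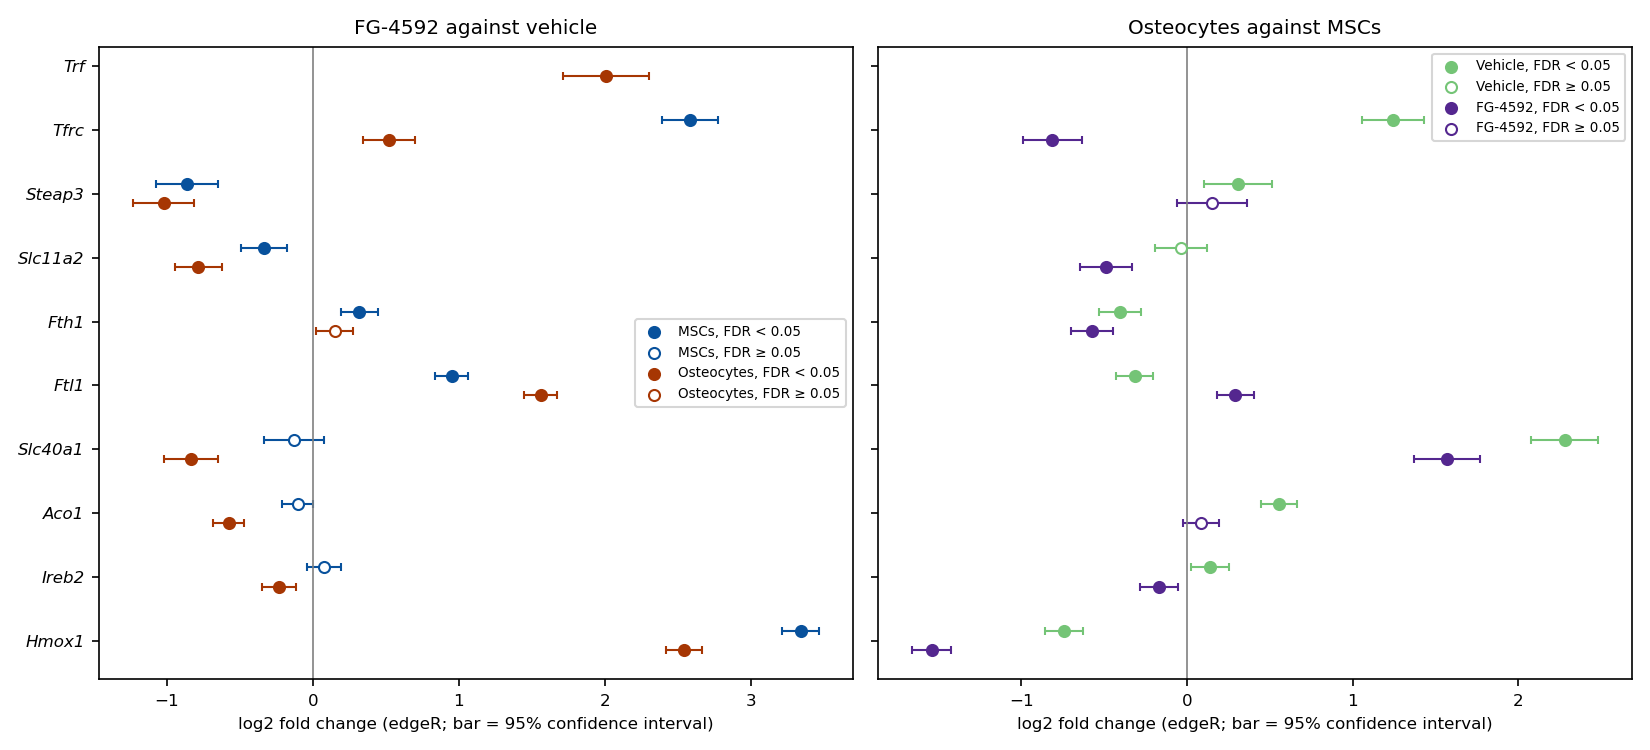
Log2 fold changes of the 10 genes (horizontal axes) for FG-4592 against vehicle in MSCs and osteocytes (left) and for osteocytes against MSCs in vehicle and FG-4592 (right), with 95% confidence intervals from edgeR; filled points have an FDR under 0.05. *Trf* is drawn only for FG-4592 in osteocytes, because the MSC libraries were at or near 0 counts. *Tfrc*, *Ftl1* and *Ireb2* lie on opposite sides of 0 in the 2 comparisons of cell types.

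The second question was whether the 2 cell types responded differently, tested in the same fit as the response of osteocytes minus that of MSCs. Of the 9 genes with a value, 6 had a lower log2 response in osteocytes and 1 a higher one, where 11% and 13.3% of all genes tested did, and the median difference was −0.45 beside 0.05 over all genes. For *Tfrc*, *Hmox1* and *Slc11a2* both cell types moved in the same direction and the sizes differed: *Tfrc* and *Hmox1* rose less in osteocytes, and *Slc11a2* fell more. For *Slc40a1*, *Aco1* and *Ireb2* the response of osteocytes was a fall and that of MSCs did not pass the test. *Ftl1* rose more in osteocytes, by a log2 difference of 0.61 (SE 0.08, FDR 2.32e-05, edgeR). *Fth1* (log2 difference −0.17, 95% confidence interval −0.35 to 0.01) and *Steap3* (−0.16, −0.45 to 0.13) were not called, although *Fth1* was without replicate 1 of the vehicle-treated osteocytes (log2 difference −0.29, FDR 0.0031). The 2 ferritin chains therefore had differences of opposite sign, of which that of *Ftl1* passed the test. The 4 conditions enter several of these comparisons, so that the responses and the differences between cell types share libraries.

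The third question was how differentiation went with the iron genes. *Trf* passed the filter only through its osteocyte libraries and is left out of these counts. In vehicle, 5 of the other 9 genes were higher in osteocytes and 3 lower, where 26% and 24.9% of all genes tested were. *Slc40a1*, *Tfrc*, *Aco1*, *Steap3* and *Ireb2* were higher, and *Hmox1*, *Fth1* and *Ftl1* were lower. In FG-4592, 2 were higher and 5 lower, against 30.5% and 25.3% of all genes. *Slc40a1* was higher in osteocytes in both settings, and *Hmox1* and *Fth1* were lower in both. *Tfrc* and *Ireb2*, higher in osteocytes with vehicle, were lower with FG-4592, and *Ftl1* turned from lower to higher. Both differences of *Ireb2* depended on the processing or on single libraries, as given above. Osteocyte libraries lay wholly above the MSC libraries for 5 of the 9 genes and wholly below for 3 in vehicle (28.7% and 28.2% of all genes), and for 3 and 5 in FG-4592 (34.5% and 29.6%).

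On the scale of CPM per kb of exon (RPKM), which allows levels to be set side by side between genes, both ferritin transcripts were above the other 8 in every condition. In vehicle-treated MSCs *Ftl1* was at 2240, 2153 and 2277 RPKM and *Fth1* at 709.3, 752.5 and 718.0 RPKM, whereas *Hmox1* was at 51.5, 53.6 and 47.4, *Aco1* at 29.2, 29.9 and 30.2 and *Tfrc* at 3.33, 3.30 and 2.91 RPKM. *Slc40a1* was under 1 RPKM in all 6 MSC libraries and between 1.85 and 3.90 RPKM in osteocytes. Levels per kb depend on the length used: *Slc40a1* has 9000 exonic bases in all and 3370 in its principal transcript, over which its mean was 1.99 and 1.83 RPKM in MSCs and 9.68 and 5.43 RPKM in osteocytes with vehicle and FG-4592. Both ferritins remained above the other 8 on that length too. The gap was smallest in FG-4592-treated MSCs, where *Hmox1* was at 495.5 to 528.5 RPKM and *Fth1* at 876.5 to 930.2 RPKM.

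The other genes of the pathway were counted in 4 lists, chosen by function. The counts are to be read against all genes tested, of which 17.6% were higher and 20.4% lower with FG-4592 in MSCs, and 21.9% and 22% in osteocytes. In each cell type they cover the genes above 10 counts in at least 3 of its 6 libraries, a limit set after the data were seen. Of 8 other carriers, reductases and oxidases, 2 were higher and 2 lower with FG-4592 in MSCs, where *Cybrd1*, *Meltf* and *Steap4* were tested but have no value. In osteocytes 3 of 11 were higher and 2 lower. The largest rise in MSCs was that of *Cp*, the ferroxidase ceruloplasmin (159 ± 4.29 to 253 ± 15.1 CPM, log2 0.67, FDR 1.31e-05, edgeR). In osteocytes it was *Scara5*, a ferritin receptor, which went from 86.6 ± 12.7 to 327 ± 17 CPM (log2 1.92, FDR 1.43e-10) and also rose in MSCs (log2 0.50). *Steap1*, a relative of *Steap3*, had the largest fall in both cell types (log2 −0.66 and −0.99).

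Of 9 regulators and chaperones, 3 were higher and 1 lower in MSCs, and 4 were higher and 1 lower in osteocytes. *Ncoa4*, the receptor that delivers ferritin for degradation, rose in MSCs (82.5 ± 1.36 to 102 ± 3.29 CPM, log2 0.31, FDR 3.23e-05, edgeR) and had a log2 fold change of 0.01 in osteocytes (FDR 0.904). *Bmp6*, the growth factor through which the liver senses iron stores, rose in osteocytes from 9.51 ± 1.22 to 19.0 ± 2.03 CPM (log2 1.00, FDR 0.0018). *Neo1*, the receptor neogenin, had the largest fall in both cell types (log2 −0.36 and −0.52).

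Among 19 genes of mitochondrial iron import and iron-sulfur cluster assembly, 2 were higher and 6 lower in MSCs, and 5 were higher and 6 lower in osteocytes. *Fdxr*, ferredoxin reductase, had the largest fall in both, from 42.2 ± 2.13 to 21.4 ± 0.155 CPM in MSCs (log2 −0.98, FDR 4.97e-07, edgeR) and from 21.1 ± 3.46 to 14.5 ± 0.57 CPM in osteocytes (log2 −0.54, FDR 0.000233). *Iba57*, a cluster assembly factor, had the largest rise in MSCs (log2 0.73), and *Slc25a28*, the mitochondrial iron importer mitoferrin 2, had the largest in osteocytes (log2 0.79, FDR 1.54e-05) beside −0.03 in MSCs.

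Of the genes of heme synthesis, transport and breakdown other than *Hmox1*, 7 of 16 were higher and 3 lower in MSCs, where *Flvcr2* has no value, and 4 of 17 were higher and 4 lower in osteocytes. *Slc48a1*, which carries heme out of lysosomes, had the largest rise in both, from 185 ± 1.31 to 356 ± 9.52 CPM in MSCs (log2 0.95, FDR 1.76e-10, edgeR) and from 185 ± 8.04 to 323 ± 13.6 CPM in osteocytes (log2 0.81, FDR 9.34e-10). *Hp*, the hemoglobin scavenger haptoglobin, had the largest fall in both, from 314 ± 14 to 73.1 ± 7.54 CPM in MSCs (log2 −2.10, FDR 6.96e-12) and from 340 ± 40.1 to 237 ± 3.25 CPM in osteocytes (log2 −0.52, FDR 4.86e-05). The medians of the 4 lists, in the order given, were 0.02, 0.09, −0.06 and 0.11 in MSCs and 0.17, 0.11, −0.24 and −0.02 in osteocytes on the log2 scale. In osteocytes the carriers include *Cybrd1* (3 to 18 counts with vehicle, 34 to 42 with FG-4592, log2 1.81) and *Steap4* (0 to 28 and 22 to 56, log2 1.52). Both reached the limit on counts only with their treated libraries, so the median of 0.17 is not to be read as a rise.

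**Figure D4:**
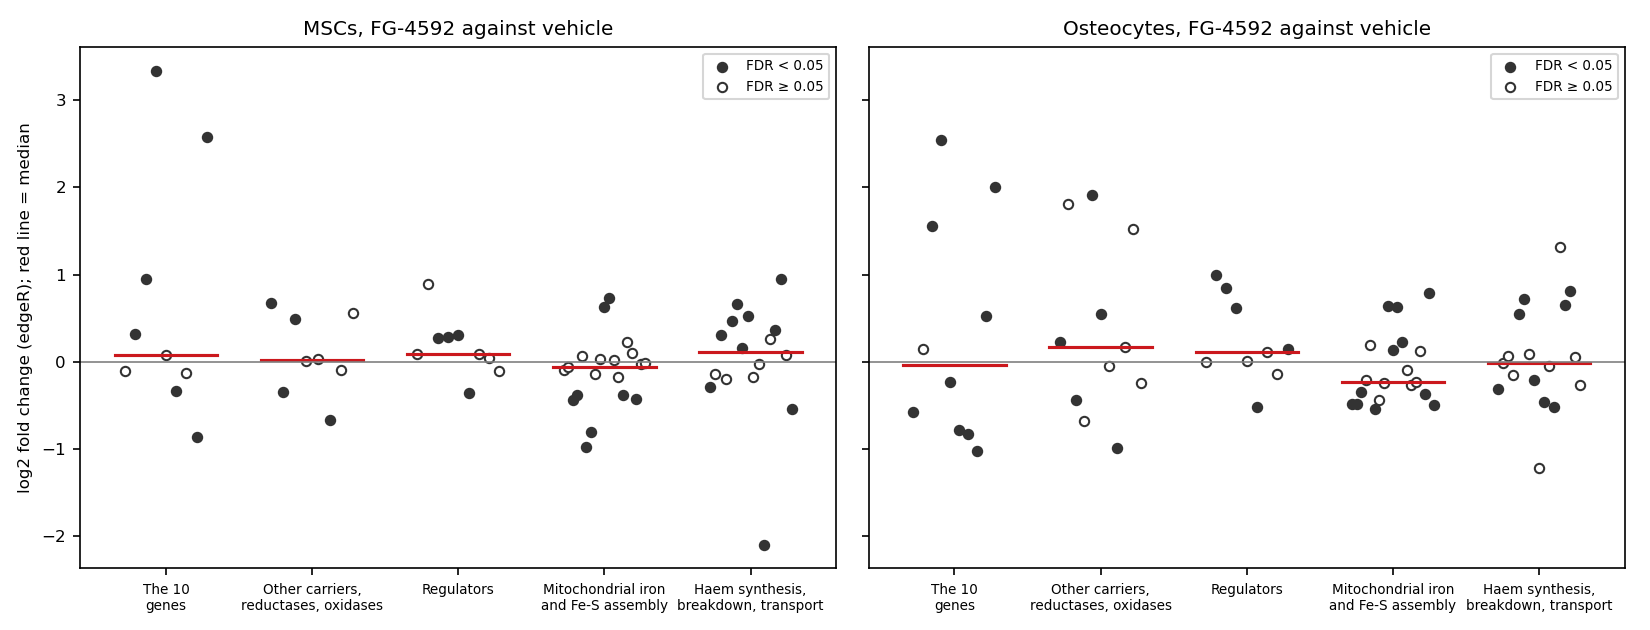
Log2 fold changes with FG-4592 (vertical axes) in MSCs (left) and osteocytes (right) of the 10 genes and of 4 further lists of iron genes; each point is a gene, filled at an FDR under 0.05 (edgeR), and the red line is the median of the genes with a value. In both cell types the medians lie near 0 while single genes rose or fell.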

How the data were processed

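RNAseq was measured in 12 libraries of MPC2 cells, 3 for each of 4 conditions, prepared with the KAPA mRNA HyperPrep kit and read as 100-base pairs. The authors mapped the reads to mm10 with STAR (2.7.2a) and deposited counts per Gencode M22 gene from featureCounts (Subread 1.6.2), with reads under a mapping quality of 10 dropped, without strand and without normalization. Each pair was stated to be counted for every gene it overlaps, which most nested genes do not show. The values are whole numbers with unequal library totals.

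From the deposited counts, every gene above 10 counts in 3 or more libraries entered the quasi-likelihood test of edgeR 4.0.16 under R 4.3.3, with TMM normalization, all 12 libraries in the fit (8 residual degrees of freedom) and p-values adjusted by Benjamini-Hochberg across those genes. The study's filter and TMM were used, and its text does not name the edgeR test. The study calls genes at an FDR under 0.05 and an absolute log2 fold change above 1. Calls here use the FDR alone unless both cutoffs are named. With 3 libraries against 3, an exact permutation test cannot give a two-sided p under 0.1. CPM were scaled with TMM factors, and RPKM divided them by exonic length. Precision follows from the totals and the 3 libraries of a condition. The labels do not say whether libraries came from separate cultures, so that p-values measure the spread between these libraries only.

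The 10 genes and the lists were chosen with earlier results of these data known. Named beside them were, per list and response, the genes with the largest rise and fall at an FDR under 0.05 and a mean of at least 100 counts in the highest condition, and the 3 genes most correlated with each of 5 members. *Pdpn* is listed in more than one row and was left out of its marker list. Alternatives were edgeR's likelihood ratio test, filterByExpr or no filter, DESeq2 1.42.0, upper-quartile or RLE factors or none, fits on 6 libraries, a replicate block, thinning, removal of genes that share exonic bases, pseudogene counts added to ferritins, and each library left out. Copies were found with blastn 2.17.0 in Gencode M21 transcripts, and figures drawn in matplotlib 3.10.9. ATACseq was not analysed here.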

Additional observations from a re-analysis of the deposited data

Results flagged for a closer look

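FG-4592 changed osteocytes and MSCs to different degrees for 7 of the 9 genes with a value, by the interaction contrast of edgeR's quasi-likelihood test (1 higher and 6 lower in osteocytes, where 13.3% of all genes tested were higher and 11% lower). The log2 response of osteocytes minus that of MSCs was −2.06 for *Tfrc* (FDR 9.65e-09), −0.80 for *Hmox1* (1.64e-06), −0.71 for *Slc40a1* (0.000855), −0.47 for *Aco1* (0.000151), −0.45 for *Slc11a2* (0.00484) and −0.31 for *Ireb2* (0.00717). It was 0.61 for *Ftl1* (2.32e-05). In the same contrast 2 of 7 osteoblast and osteocyte markers were higher and 1 lower, and 2 of 4 mesenchymal markers were higher and 1 lower, to be read against the same shares of all genes. Of the adipocyte genes, *Adipoq* had a log2 difference of 1.34 (FDR 2.16e-05), *Fabp4* of 1.04 (0.00184), *Cebpa* of 0.68 (2.44e-05) and *Lpl* of −0.44 (0.00037). *Plin1* (0.71, FDR 0.174) and *Pparg* (0.09, FDR 0.413) were not called. *Retn*, *Cidec* and *Cfd* have no value in MSCs, and no count is given. The part of these markers and adipocyte genes in the differences of the iron genes was not tested.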

How the results depend on the processing

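The numbers of members called in the 5 comparisons kept within 1.5 times their reported values under every alternative run but one. Fits on the 6 libraries compared were run for 4 of the comparisons, since the difference between responses needs all 12. Leaving out every gene with exonic bases in common with another takes out *Trf*, *Ftl1* and *Slc11a2*, which leaves 7 members, of which 1 was lower with FG-4592 in MSCs, 2 were higher with FG-4592 in osteocytes, 1 was higher in osteocytes than in MSCs in FG-4592, and 0 had a larger response in osteocytes by edgeR. Without one library at a time, the numbers higher and lower were 4 and 2 for FG-4592 in MSCs, 4 to 5 and 5 for FG-4592 in osteocytes, 4 to 5 and 3 between cell types in vehicle, 2 and 4 to 5 in FG-4592, and 1 and 6 to 7 for the difference between responses. The log2 change of the *Tfrc* to *Fth1* ratio was then 2.21 to 2.32 in MSCs and 0.32 to 0.41 in osteocytes, and that of the *Tfrc* to *Ftl1* ratio 1.56 to 1.73 and −1.10 to −0.96. Of single genes, *Ireb2* in MSCs, not called, changed sign with library size alone (log2 −0.009), and *Slc11a2* between vehicle-treated cell types, not called, had log2 differences from −0.06 to 0.044 without single libraries, positive without replicate 2 of the vehicle-treated MSCs (0.023) or of the vehicle-treated osteocytes. *Aco1* in MSCs was called with upper-quartile factors (−0.13, FDR 0.0429) and with library size alone (−0.19, FDR 0.00697). The causes were not tested. With library size alone, higher genes made up 32.7% of the calls in MSCs and 36.9% in osteocytes, beside 46.3% and 49.9% with TMM factors, and the median of all genes was −0.13 and −0.10 in place of −0.05 and 0.00.

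With the replicate number as a block, 4 members were higher and 2 lower with FG-4592 in MSCs, 4 and 5 in osteocytes, and 1 and 6 for the difference between responses, as without it. Deviations of libraries with the same number had correlations between −0.053 and 0.054, and those with different numbers between −0.098 and 0.093. No shared deviation was seen, but deviations from means of 3 libraries cannot settle whether the numbers pair the libraries. Depth limits *Trf* in MSCs, which was not detectable above the floor.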
